A study of Mus musculus with 24 samples.

Results

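The respiratory chain of the mitochondrion is built from subunits encoded by 2 genomes, and the genes described here are those subunit genes in mouse pancreatic ductal adenocarcinoma (PDAC) cell lines. The members were chosen by gene symbol alone, as protein-coding genes whose symbol names a subunit of complexes I to V or a close relative of one. The rule found 100 of the 55401 genes in each count table. Of these, 13 lie on the mitochondrial chromosome (chrM) and 87 in the nucleus. The chrM members are 7 subunits of complex I, 1 of complex III, 3 of complex IV and 2 of complex V. The nuclear members are 36 of complex I, 4 of complex II, 8 of complex III, 21 of complex IV and 18 of complex V. The symbol Atp5o stands for 2 gene records on chromosome 16 whose annotated spans overlap, and both were kept as members.

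RNA was sequenced from 24 libraries in 11 groups, all from cultured PDAC lines labelled as pancreas. KPsh cells carry an shRNA against p53 that doxycycline switches on, and 3 libraries were made from cells kept on 1 µg/ml doxycycline and 3 from cells kept off it, for 10 days. The same line with a guide RNA against Pcyt2 (sgPcyt2), an enzyme of phosphatidylethanolamine synthesis, and the same with a guide-resistant Pcyt2 cDNA added (sgPcyt2+Pcyt2-cDNA), were kept on or off the drug for 6 days, with 2 libraries each. KPnull cells carried a doxycycline-inducible vector without cDNA, or one for wild-type p53 (p53WT) or for p53 altered in its first transactivation domain (TAD1m), its second (TAD2m) or both (TAD12m). Each of these 5 groups has 2 libraries and, by the growth protocol, was given 1 µg/ml doxycycline 48 h before harvest, the vector group included. The design text of the series speaks of KPnull cells with or without the drug, and the labels of single libraries do not give it. In the tables, the columns of KPsh cells off doxycycline (named by day) and of the cells with the cDNA (named for Pcyt2) were assigned as the only ones left for those samples. The labels do not say whether replicates are separate cultures, and the p-values reflect only how much these libraries vary, be it by technique or by culture. In the KPsh and sgPcyt2 sets the cells with more p53 are also the cells without doxycycline, an antibiotic known to inhibit mitochondrial translation. There the drug and p53 cannot be told apart, and in the KPnull set this depends on the vector group having received the drug as the growth protocol has it.

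Electrons enter the chain at complex I (NADH dehydrogenase) or complex II (succinate dehydrogenase), pass through complex III (the cytochrome bc1 complex) to complex IV (cytochrome c oxidase), and the proton gradient so built drives complex V (ATP synthase). Complex II is encoded by nuclear genes alone. Mitochondrial DNA is transcribed from both strands as long precursor RNAs, which are cut at the tRNAs between the genes, so its subunit RNAs start from shared transcripts and differ in how stable they are. Nuclear subunit genes are transcribed one by one, many of them through the factors NRF1, GABPA and ERRα with their coactivators.

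Not all 13 chrM genes could be measured. For mt-Co2, mt-Atp6, mt-Co3, mt-Nd3 and mt-Nd4l, between 98.0% (mt-Nd3) and 100% (mt-Co2) of all 50-base words also stand in annotated pseudogenes on chromosome 1, such as Gm28661 and Gm28437. For mt-Atp8, which lies among them, no other annotated transcript holds such a word. The whole 681 bases of Gm28661 that align to mt-Co2 hold 0 mismatches, and the 783 bases of Gm28437 that align to mt-Co3 hold 0. One 60-base window of each pair is shown, because a read from it matches both places equally (mm10: mt-Co2 at chrM:7313-7372 and Gm28661 at chr1:24615206-24615265 on the minus strand, mt-Co3 at chrM:8907-8966 and Gm28437 at chr1:24613612-24613671 on the minus strand).
mt-Co2: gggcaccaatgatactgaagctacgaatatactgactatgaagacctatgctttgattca
Gm28661: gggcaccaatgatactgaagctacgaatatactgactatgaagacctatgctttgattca
mt-Co3: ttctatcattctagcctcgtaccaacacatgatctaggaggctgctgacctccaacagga
Gm28437: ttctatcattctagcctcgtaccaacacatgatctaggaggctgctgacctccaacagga

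The deposited counts have a gap there. In the KPsh table the 6 genes mt-Co2, mt-Atp8, mt-Atp6, mt-Co3, mt-Nd3 and mt-Nd4l held between 0 and 22 counts per library, while the other 7 chrM genes held between 3509 and 116331. The ranges were 0 to 20 against 7092 to 172321 in the KPnull table, and 13 to 177 against 4330 to 238848 in the sgPcyt2 table. The chromosome 1 copies did not hold the missing reads either, with at most 116, 327 and 291 counts in the 3 tables. How reads that match 2 places were treated is not given in the sources used here. Levels of these 6 genes are therefore not levels of their RNAs, and the results rest on the other 7, which are mt-Nd1, mt-Nd2, mt-Co1, mt-Nd4, mt-Nd5, mt-Nd6 and mt-Cytb. Among these, 62.2% of the 50-base words of mt-Nd4 and 51.1% of those of mt-Co1 also occur in another annotated transcript. The shares are 8.2% for mt-Nd2 and 7.6% for mt-Nd5, and mt-Nd1, mt-Nd6 and mt-Cytb share none.

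A pair of short overlaps adds to the limits. The annotation has mt-Atp8 and mt-Atp6 share 43 bases, and mt-Nd4l and mt-Nd4 share 7, shown in capitals on the plus strand (mm10, chrM:7917-7979 and chrM:10147-10193).
mt-Atp8 and mt-Atp6 junction: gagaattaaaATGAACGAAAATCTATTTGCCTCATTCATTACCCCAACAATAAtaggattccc
mt-Nd4l and mt-Nd4 junction: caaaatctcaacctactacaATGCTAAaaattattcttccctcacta
The gene mt-Nd6 is read from the other strand than the rest of the 13 (chrM:13552-14070). Reads of both strands were counted together, so a value of mt-Nd6 can include RNA of the opposite strand.

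Nuclear members come with promoters, of which RefSeq's table (build GRCm38.p6, 250 bases before to 50 after a start site) held 69 of 87. The motif of NRF1, searched as GCGCA, any 1 base and GCGC, stood on either strand in 18 of these 69 (26.1%) and in 5.2% of the promoters of 27025 genes. The ETS motif CCGGAAG, of the family of GABPA, stood in 17 (24.6%) against 9.9%. The shares were 8.7% against 8.1% for CACGTG and 43.5% against 41.1% for CCAAT. A full p53 response element stood in none of the 69 and in 0.1% of all, and its single copy in 4 (5.8%) against 9.6%. A match is a stretch of letters and no proof of binding. Below are 4 promoters of complex I and IV genes with large changes in the comparisons that follow, 3 of genes that were higher with more p53 (Ndufv3, Cox7a2l, Ndufa6) and 1 of a gene that was lower (Ndufa5), with NRF1 motifs in capitals (chr17:31519865-31520164 on the plus strand, and chr17:83514284-83514583, chr15:82354242-82354541 and chr6:24527477-24527776 on the minus strand).
Ndufv3 promoter: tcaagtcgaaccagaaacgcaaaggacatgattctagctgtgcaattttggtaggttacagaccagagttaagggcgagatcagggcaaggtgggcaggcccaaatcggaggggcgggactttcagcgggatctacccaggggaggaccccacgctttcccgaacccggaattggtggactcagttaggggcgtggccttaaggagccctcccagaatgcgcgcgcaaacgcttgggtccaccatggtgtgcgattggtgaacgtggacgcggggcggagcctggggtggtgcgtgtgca
Cox7a2l promoter: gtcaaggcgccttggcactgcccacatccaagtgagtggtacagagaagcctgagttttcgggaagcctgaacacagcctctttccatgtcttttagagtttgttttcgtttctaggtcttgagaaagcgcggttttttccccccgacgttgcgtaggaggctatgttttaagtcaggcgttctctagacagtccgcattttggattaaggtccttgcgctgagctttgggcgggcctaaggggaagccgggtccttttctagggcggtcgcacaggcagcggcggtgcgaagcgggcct
Ndufa6 promoter: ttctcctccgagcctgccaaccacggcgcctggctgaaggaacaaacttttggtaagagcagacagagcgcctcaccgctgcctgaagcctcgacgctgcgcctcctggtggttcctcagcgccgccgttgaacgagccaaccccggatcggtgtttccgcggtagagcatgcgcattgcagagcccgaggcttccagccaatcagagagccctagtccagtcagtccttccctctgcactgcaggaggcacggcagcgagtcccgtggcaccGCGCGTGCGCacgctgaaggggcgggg
Ndufa5 promoter: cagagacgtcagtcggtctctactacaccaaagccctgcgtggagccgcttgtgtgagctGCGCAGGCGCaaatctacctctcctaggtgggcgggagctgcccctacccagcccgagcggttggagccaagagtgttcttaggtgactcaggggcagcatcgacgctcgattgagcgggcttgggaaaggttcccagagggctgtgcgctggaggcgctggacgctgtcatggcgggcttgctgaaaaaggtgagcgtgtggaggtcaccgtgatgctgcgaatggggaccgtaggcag

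Library totals lay between 9398977 and 12988762 counts in the KPsh table, 13662715 and 19436728 in the KPnull table, and 13806378 and 17132699 in the sgPcyt2 table. Trp53 followed the labels: its log2 change was 3.61 ± 0.07 (SE) off against on doxycycline in KPsh, between 6.60 and 6.94 for each p53 cDNA against vector, 1.00 ± 0.08 in sgPcyt2 cells and 2.21 ± 0.07 in cells with the cDNA. Markers of fibroblasts, immune, endothelial, acinar and endocrine cells were mostly under 1 CPM (counts over the TMM-scaled library total, set to a common size), with at most 9.63 CPM (Cd68). Summed levels of 7 epithelial markers moved with several comparisons, at 12300 to 13000 CPM off and 6790 to 7080 on doxycycline in KPsh, and 10200 to 11400 off and 6330 to 7500 on in the sgPcyt2 set. Sums of 7 immune markers, led by Cd68, moved too, from 1.76 to 2.92 CPM on to 7.04 to 9.81 off doxycycline in KPsh, and from 2.30 to 2.37 with vector to 8.41 to 8.77 with p53WT, 8.54 to 10.0 with TAD2m, 7.57 to 7.99 with TAD1m and 2.79 to 3.49 with TAD12m. In the sgPcyt2 set they were 2.08 to 3.33 on and 3.47 to 6.22 off the drug, and 5 endothelial markers summed to 0.662 to 2.78 on and 6.54 to 8.27 off it (0.227 to 0.626 and 2.45 to 2.86 in KPsh). The epithelial sums were 7850 to 8380 with p53WT and 7880 to 8210 with TAD2m, against 5480 to 5890 with vector, 5140 to 5240 with TAD1m and 5010 to 5690 with TAD12m. The part of these markers in the results was not tested.

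Per kilobase, the measured chrM genes kept one rough order in the 11 groups, with mt-Co1 highest in each. In KPsh cells on doxycycline the group mean was 4724 CPM per kb for mt-Co1, 3357 for mt-Cytb, 3278 for mt-Nd1 and 1137 for mt-Nd2. The means of mt-Nd5 (631), mt-Nd6 (626) and mt-Nd4 (589) lay close together. With wild-type p53 in KPnull cells the same 3 stood at 1594, 1583 and 1361 CPM per kb, against 956, 906 and 765 with vector. Of the 50-base words of mt-Nd4 and mt-Co1, 62.2% and 51.1% also occur elsewhere. Their levels per kilobase may therefore miss reads, and their distance from the other genes is uncertain. Among nuclear members Atp5b, the catalytic beta subunit of ATP synthase, and Cox4i1, the common isoform of subunit 4 of complex IV, were among the most abundant, at 889 and 401 CPM per kb in KPsh cells on doxycycline. The median per complex in that group was 55.5 CPM per kb for complex I, 86.5 for complex II, 123 for complex III, 58.9 for complex IV and 167 for complex V. For complex IV it covers all 21 nuclear members, of which only 12 passed the filter on low counts, so scarce isoforms lower it. All nuclear members of the other complexes passed. The transcript kept for a gene, and so its length, differed between tables for 16 of the 100 members, all nuclear, so levels per kilobase were compared within a table only.

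**Figure D1:**
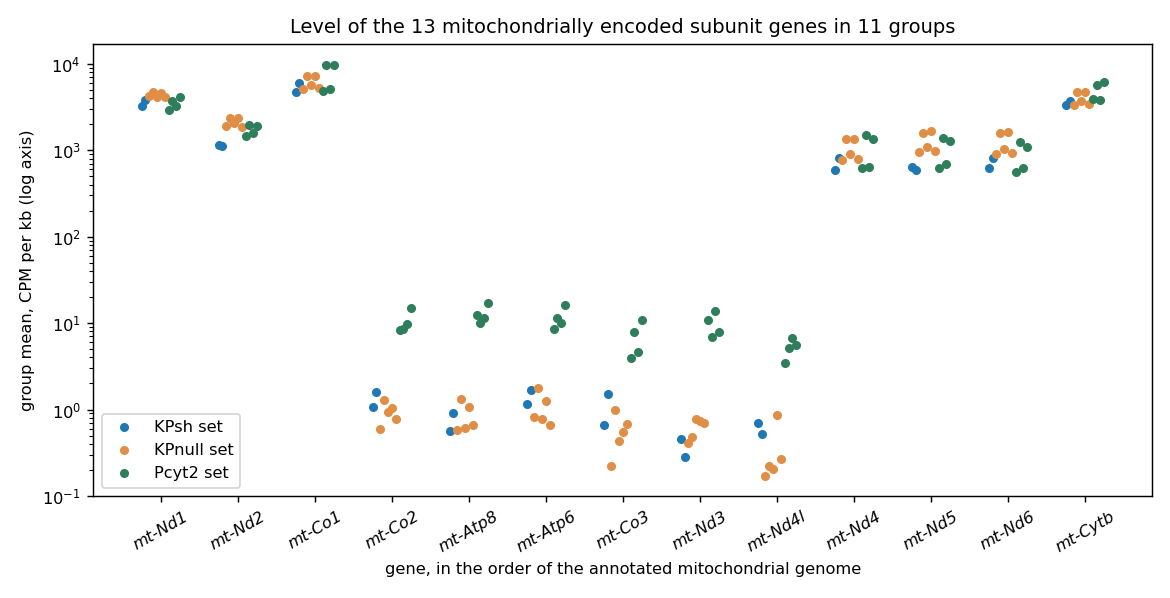
Group means of the 13 chrM subunit genes in CPM per kb on a log axis, 1 point per group, coloured by table. The genes from mt-Co2 to mt-Nd4l lie orders of magnitude below the other 7 in all 11 groups, as the gap in the counts describes.

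As a share of all counts, the 13 chrM genes took 1.74% to 1.92% in KPsh cells on doxycycline and 1.89%, 1.91% and 2.34% off it. The off-doxycycline values overlap the others except for replicate 2. The difference of the means, 0.243 percentage points, did not pass an exact two-sided permutation test (p = 0.3, where 0.1 is the smallest that 3 against 3 allow). In KPnull cells the share was 2.17% and 2.08% with vector, 2.81% and 2.85% with p53WT, 2.84% and 2.89% with TAD2m, 2.31% and 2.33% with TAD1m, and 2.29% and 2.01% with TAD12m. Thus p53WT, TAD2m and, by less, TAD1m lay above both vector libraries and TAD12m on both sides of them. In sgPcyt2 cells it went from 1.79% and 1.90% on doxycycline to 3.37% and 3.19% off it, and in cells with the cDNA from 1.94% and 1.90% to 3.26% and 3.27%. With 2 libraries a group the smallest two-sided exact p is 0.333, so these shares were not tested.

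The 87 nuclear genes moved the other way or little. They took 0.974% to 1.01% of counts on and 0.973% to 1.07% off doxycycline in KPsh (exact permutation p = 0.4, two-sided). In KPnull cells the share was 0.943% and 0.941% with vector, 0.923% and 0.873% with p53WT and 0.871% and 0.868% with TAD2m. In the sgPcyt2 set it was 0.827% to 0.894% on and 0.717% to 0.761% off doxycycline, with no overlap. Divided by each other within a library, counts of the 7 measured chrM genes and of the nuclear genes gave 2.18 ± 0.155 (SD, n = 2) on and 4.49 ± 0.295 (n = 2) off doxycycline in sgPcyt2 cells, and 2.16 ± 0.058 and 4.29 ± 0.004 with the cDNA. The ratio was 2.25 ± 0.062 with vector, 3.16 ± 0.152 with p53WT, 3.29 ± 0.05 with TAD2m, 2.45 ± 0.038 with TAD1m and 2.27 ± 0.307 with TAD12m (each n = 2). In KPsh it was 1.82 ± 0.077 on and 1.99 ± 0.356 off doxycycline (n = 3 each, exact permutation p = 0.6, two-sided).

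**Figure D2:**
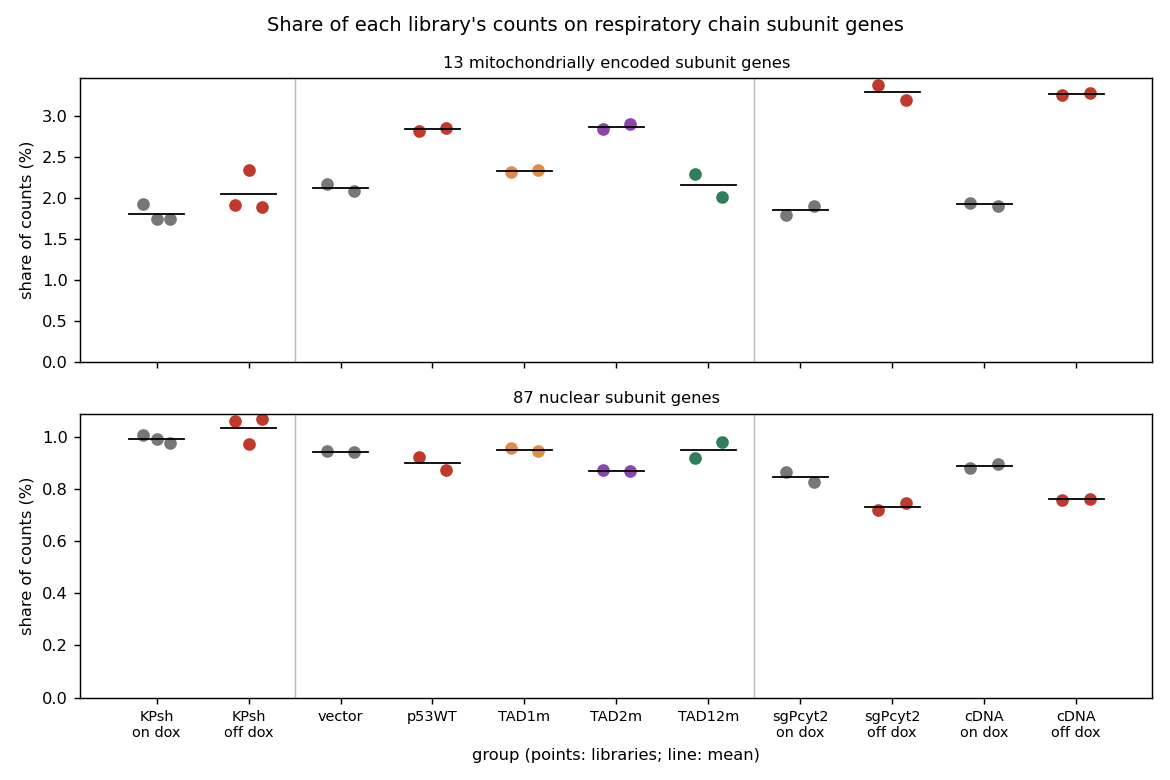
Percent of each library's counts on the 13 chrM genes (top) and the 87 nuclear genes (bottom), by group; points are libraries and lines are means, and both axes start at 0. The chrM share of the cells off doxycycline in the sgPcyt2 set (3.19% to 3.37%) stands above all other libraries, while the nuclear share of the same cells (0.717% to 0.761%) stands below.

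In KPsh cells, withdrawal of doxycycline came with higher RNA of many subunits of complexes I, III and IV and small changes on chrM. A gene was called when edgeR's quasi-likelihood test gave a Benjamini-Hochberg adjusted p under 0.05 over all genes tested. Of the 8 chrM genes that passed the filter on low counts, 3 rose and 0 fell. In this comparison 64.8% of all 13990 genes tested were called, 33.1% higher and 31.7% lower, so the chrM share of calls lies under the background. Of the 78 nuclear members tested, 38 rose and 11 fell, with a median log2 change of 0.18 beside 0.0072 for all genes. Taken in both directions, the nuclear share of calls is near the background. Under a second rule, which also asks for a log2 change of at least 0.5 in size, 14 nuclear members were higher and 1 lower, beside 21.8% and 17.1% of all genes, and 0 of 8 chrM genes.

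The chrM genes did not move together in KPsh. mt-Nd4, a proton-pumping core subunit of complex I, stood at 878, 782 and 774 CPM on and 1099, 1210 and 1078 off doxycycline. The groups do not overlap, and the log2 change was 0.48 ± 0.06 (adjusted p = 4.59e-07, edgeR's quasi-likelihood test). mt-Co1, the catalytic subunit of complex IV, held 7840, 6935 and 7110 CPM on and 8091, 10720 and 8663 off, again without overlap but with replicate 2 far above the others (0.33 ± 0.10). mt-Nd1 rose by 0.21 ± 0.07, a call that was lost without replicate 2 off doxycycline (0.12) and without replicate 2 or 3 on it (0.18 and 0.16). mt-Nd2 (-0.04 ± 0.11), mt-Nd5 (-0.08 ± 0.11), mt-Nd6 (0.39 ± 0.23) and mt-Cytb (0.16 ± 0.08) did not pass.

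Complex IV gave the clearest block among nuclear genes in KPsh. Of its 12 members tested, 11 rose and 0 fell, with a median log2 change of 0.41, beside 33.1% and 31.7% of all genes. Cox7a2l, known for its part in joining complexes III and IV into supercomplexes, stood at 64.5, 61.1 and 63.6 CPM on and 112, 105 and 109 off doxycycline (0.78 ± 0.06, adjusted p = 2.35e-10, edgeR's quasi-likelihood test). Every library off doxycycline lay above every library on it. Cox4i1 held 305, 299 and 304 CPM on and 459, 440 and 497 off (0.62 ± 0.06). Cox7b was the smallest change called (0.17 ± 0.06), and lost the call without replicate 1 or 3 off or replicate 2 or 3 on doxycycline (0.10 to 0.16). Part of the Cox4i1 exons overlaps Emc8 (20.1%), and 19.8% of the 50-base words of Cox7a2l also stand in a pseudogene. Cox5a (0.47 ± 0.18), a nuclear subunit that surrounds the core, did not pass.

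Complex I split. Of its 36 nuclear members 17 rose and 4 fell in KPsh (median 0.20), beside 33.1% and 31.7% of all genes. Ndufv3, an accessory subunit of the NADH-oxidising module, was at 26.9, 21.8 and 26.0 CPM on and 48.3, 42.2 and 49.7 off doxycycline, with no overlap (0.90 ± 0.09, adjusted p = 1.53e-08, edgeR's quasi-likelihood test). Ndufa5, an accessory subunit of the matrix arm, went the other way, from 44.5, 44.9 and 41.7 CPM to 27.1, 26.8 and 28.8 (-0.66 ± 0.08). All its values off the drug lay below those on it. Ndufb6 (0.86 ± 0.08), Ndufb2 (0.75 ± 0.11) and Ndufa7 (0.69 ± 0.07), further accessory subunits, rose, while the core subunits Ndufs1 (-0.35 ± 0.06) and Ndufv2 (-0.27 ± 0.08) fell.

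The largest single changes in KPsh were smaller in the other complexes, though the median of complex III lay above that of complex I (0.20). Of all genes 33.1% were called higher and 31.7% lower. In complex III 5 of 8 rose and 2 fell (median 0.28), with Uqcrq, a small membrane subunit, highest (0.41 ± 0.06) and Uqcrb, another small subunit, lowest (-0.28 ± 0.07). In complex II Sdhc rose (0.18 ± 0.07) and Sdhd fell (-0.25 ± 0.06), both being membrane anchors, and the other 2 did not pass. The Sdhc call was lost under DESeq2 and without any one library except replicate 2 off doxycycline (0.14 to 0.19). In complex V 4 of 18 rose and 4 fell (median 0.08), between 0.51 ± 0.09 for Atp5mpl and -0.29 ± 0.07 for Atp5g1, which encodes a copy of the rotor ring subunit c. Atp5b, with 1703, 1712 and 1647 CPM on and 1594, 1482 and 1627 off doxycycline, did not pass (-0.11 ± 0.05).

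**Figure D3:**
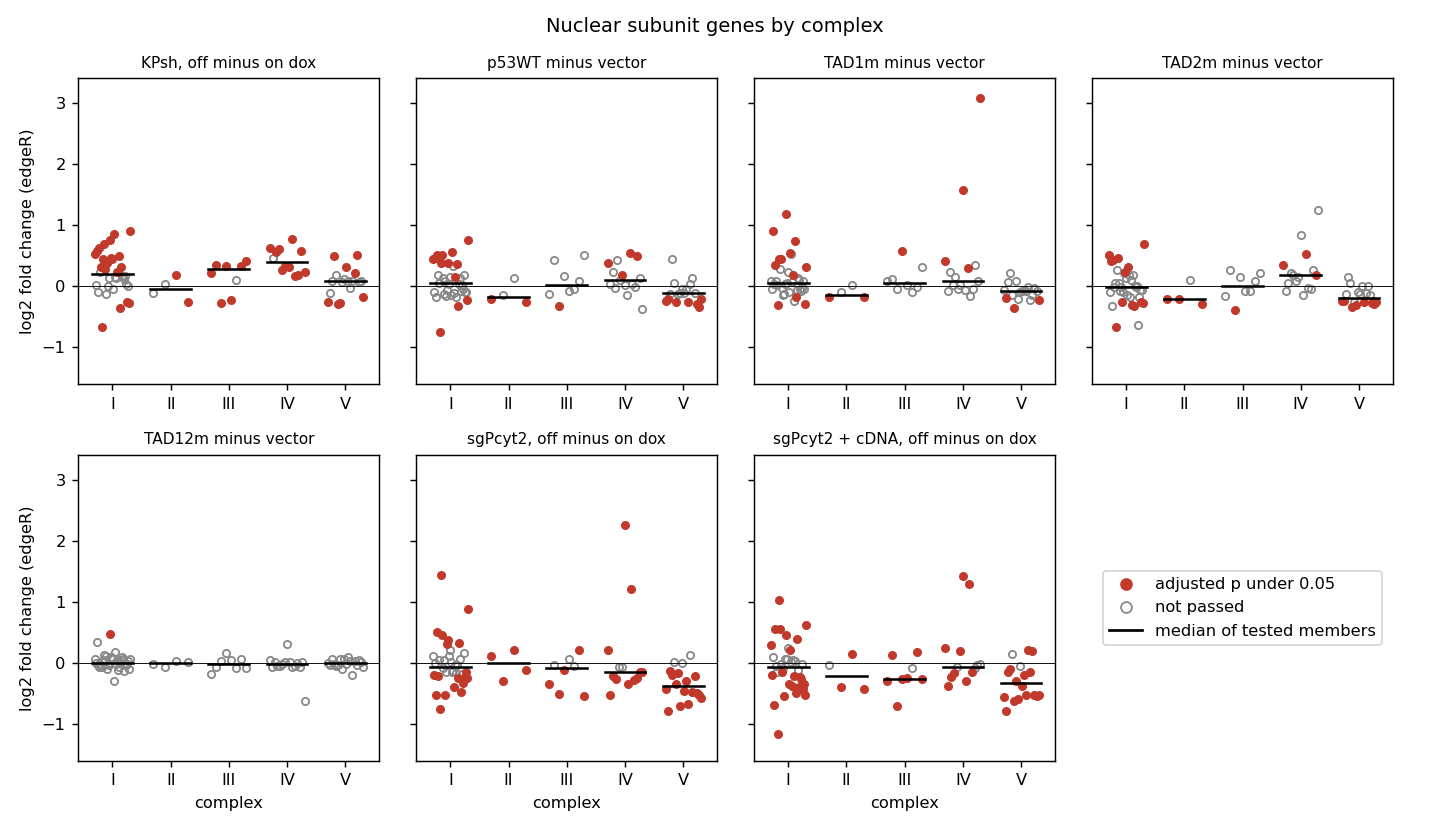
Log2 fold change of each tested nuclear member, by complex, in 7 comparisons; filled red points were called at an adjusted p under 0.05, open grey points did not pass, and lines are medians of the tested members. Complex IV lies above 0 in KPsh (median 0.41), and complex V lies mostly below 0 in both comparisons of the sgPcyt2 set.

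In KPnull cells wild-type p53 raised chrM RNAs while nuclear subunits were split. Of 10 chrM genes tested 9 rose and 0 fell. Of all 15075 genes 50.6% were called, 25.5% higher and 25.1% lower. Of the 7 measured ones 6 rose, with a median log2 change of 0.48 beside -0.0065 for all genes. The other 3 calls, mt-Co2, mt-Atp6 and mt-Co3, belong to the gap of few counts and were not made by DESeq2. Of 81 nuclear members 14 rose and 13 fell, with a median of 0.02, and the 27 calls are a smaller share than that of all genes. With a log2 change of at least 0.5, 6 chrM genes (3 of the 7 measured ones) and 5 nuclear members were higher and 1 nuclear member, Ndufa5, lower, beside 16.2% and 11.2% of all genes.

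The step was largest for mt-Nd4, mt-Nd5 and mt-Nd6, which are neighbours on chrM. With vector, mt-Nd4 stood at 1075 and 1032 CPM and with p53WT at 1895 and 1853 (0.83 ± 0.06, adjusted p = 1.38e-08, edgeR's quasi-likelihood test). mt-Nd5, another proton-pumping core subunit of complex I, went from 1761 and 1726 to 2840 and 2970 CPM (0.74 ± 0.06). mt-Nd6 went from 473 and 466 to 837 and 802 CPM (0.80 ± 0.06). In none of these 3 did the groups overlap, and mt-Co1 and mt-Cytb, the cytochrome b of complex III, each rose by 0.48 ± 0.06. mt-Nd2 rose by 0.31 ± 0.06, and mt-Nd1, at 4177 and 3932 CPM with vector and 4455 and 4454 with p53WT, did not pass (0.14 ± 0.07). Of the ribosomal RNAs, which a poly(A) kit captures poorly, mt-Rnr2 rose (0.26 ± 0.09), a call lost without either p53WT library or without vector replicate 2 (0.17 to 0.27), and mt-Rnr1 did not pass (0.00 ± 0.07).

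By complex, the shares of higher calls with p53WT were near the background in complexes I and IV. Of all genes 25.5% were called higher and 25.1% lower. In complex I 10 of 36 rose and 3 fell, in complex IV 4 of 15 rose and 0 fell, and the calls of complexes II (2 of 4), III (1 of 8) and V (7 of 18) were all lower. Ndufv3 went from 36.7 and 39.9 CPM with vector to 65.2 and 63.8 with p53WT (0.75 ± 0.07, adjusted p = 3.22e-07, edgeR's quasi-likelihood test). Ndufa5 went from 51.0 and 49.3 to 28.99 and 31.1 CPM (-0.74 ± 0.08). Both pairs stand clear of each other in opposite directions. Cox7a2l (0.55 ± 0.06) and Cox4i1 (0.38 ± 0.06) rose, Cox6c was the smallest rise called in complex IV (0.19 ± 0.07), and Sdhd (-0.26 ± 0.06), Sdha (-0.20 ± 0.06) and Uqcrb (-0.33 ± 0.07) fell. The Cox6c call was lost without p53WT replicate 1 or vector replicate 2 (0.15 each), and that of Sdha without vector replicate 1 (-0.15). In complex V the calls ran from -0.21 ± 0.05 (Atp5b) to -0.34 ± 0.07 (Atp5o, a stalk subunit). The latter value is of the Atp5o record whose exon bases all (100%) lie under exons of other gene records. The other Atp5o record fell by -0.29, and both count among the 7 lower calls. Of the Uqcrb transcript 43.2% of the 50-base words also occur in other genes, mainly a processed pseudogene, so its value may include reads of these.

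The transactivation mutants were compared with the same 2 vector libraries, so their values are set side by side. TAD2m gave for mt-Nd4 1817 and 1880 CPM (0.81 ± 0.06), TAD1m 1195 and 1262 (0.22 ± 0.06) and TAD12m 1159 and 1010 (0.04 ± 0.06). TAD2m lay with p53WT, TAD1m just above vector, and the TAD12m libraries one above and one below both vector libraries. For mt-Nd5 the changes were 0.79 ± 0.06, 0.17 ± 0.06 and 0.02 ± 0.06, and for mt-Nd6 0.83 ± 0.06, 0.18 ± 0.06 and 0.04 ± 0.06. With TAD2m 6 of 10 chrM genes rose (49.1% of all genes called, 24.9% higher and 24.2% lower), with TAD1m 5 (36.4%, of which 17.5% of all genes lower and the rest higher), and with TAD12m 0 (3.85%, 2.00% higher and 1.85% lower). For TAD12m 1 of the 10 had an unadjusted p under 0.05, and DESeq2 called 0. With a log2 change of at least 0.5, TAD2m had 4 chrM genes higher (15.6% of all genes, and 10.6% lower), TAD1m 0 (10.7% and 4.64%) and TAD12m 0 (1.03% and 0.736%). The 5 calls with TAD1m were small and fell to 0 or 1 when any one TAD1m or vector library was left out.

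Against p53WT directly, TAD1m had lower chrM RNA. Of 10 genes tested 8 fell and 0 rose (39.1% of all genes called, 20.4% higher and 18.7% lower), among them 6 of the 7 measured ones. With a log2 change of at least 0.5, 5 fell (9.91% of all genes lower and 9.02% higher), 3 of them measured ones. The count was 5 without p53WT replicate 1 or without TAD1m replicate 1. The difference was -0.61 ± 0.06 for mt-Nd4 (adjusted p = 9.75e-07, edgeR's quasi-likelihood test), -0.56 ± 0.06 for mt-Nd5 and -0.63 ± 0.06 for mt-Nd6. mt-Nd1 did not pass (-0.16 ± 0.07). TAD2m and p53WT were not told apart on chrM: 0 of 10 were called, 0 had an unadjusted p under 0.05, and DESeq2 called 0 (0.285% of all genes called, 0.199% higher and 0.0862% lower), and with a log2 change of at least 0.5 also 0 (0.126% and 0.0464%). Over the 7 measured genes their differences ran from -0.02 to 0.06, each with an SE of 0.06 or 0.07.

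**Figure D4:**
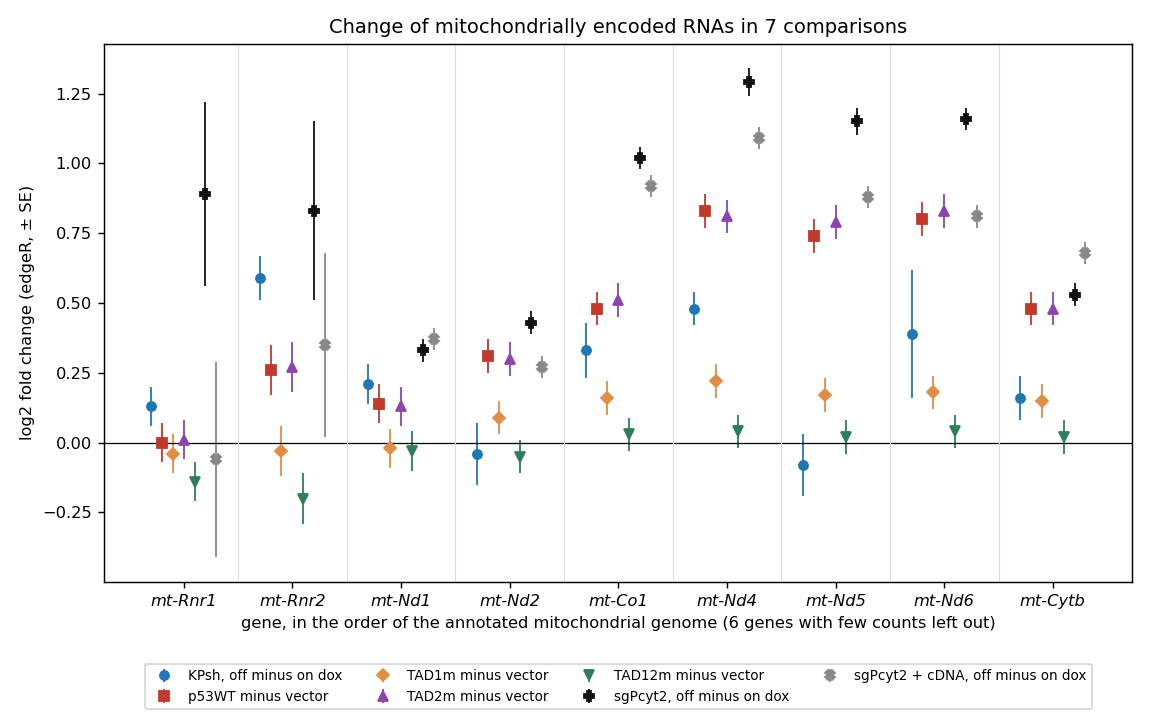
Log2 fold changes (± SE) of the 7 measured chrM subunit genes and the 2 ribosomal RNAs in 7 comparisons, in annotated order along chrM. The points of mt-Nd4, mt-Nd5 and mt-Nd6 stand high with p53WT, TAD2m and in both comparisons of the sgPcyt2 set, near 0.2 with TAD1m and near 0 with TAD12m, while in KPsh mt-Nd5 lies at -0.08.

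Among nuclear members TAD2m called 10 higher and 18 lower of 81, and TAD1m 14 and 8. Taken in both directions, these are smaller shares than the 49.1% and 36.4% of all genes called. The TAD2m count was 16 without TAD2m replicate 1, and the TAD1m count 13 without TAD1m replicate 2 or without vector replicate 1. With a log2 change of at least 0.5, TAD2m had 3 nuclear members higher and 1 lower, and TAD1m 7 and 0. The 7 include Cox7a1 and Ndufa4l2, which held few counts and were not called by DESeq2. The shares of all genes were 15.6% and 10.6% for TAD2m and 10.7% and 4.64% for TAD1m. Complex V, with 18 members, had 8 lower and 0 higher with TAD2m and 3 lower and 0 higher with TAD1m. Of all genes 24.2% and 17.5% were lower. Ndufv3 stood at 63.4 and 59.9 CPM with TAD2m (0.69 ± 0.07), 44.8 and 49.8 with TAD1m (0.31 ± 0.08) and 39.3 and 40.2 with TAD12m (0.06 ± 0.08). Ndufa5 stood at 30.8 and 32.5 CPM (-0.67 ± 0.08), 42.9 and 37.9 (-0.31 ± 0.08) and 49.3 and 47.2 (-0.06 ± 0.08) in the same order. For both genes TAD1m lay between vector and p53WT, and differed from p53WT (-0.45 ± 0.07 and 0.43 ± 0.08, adjusted p = 0.000121 and 0.000523, edgeR's quasi-likelihood test). The call of Ndufa5 with TAD1m against vector was lost without TAD1m replicate 2 (-0.23). TAD12m called 1 of 81, Ndufb2 (0.48 ± 0.11), which was not called by DESeq2 (0 of 81), and 3 of 81 had an unadjusted p under 0.05.

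Some nuclear members were highest with TAD1m. Ndufb2, an accessory subunit of the membrane arm of complex I, stood at 13.4 and 12.6 CPM with vector, 18.5 and 15.3 with p53WT, and 29.4 and 30.3 with TAD1m. The TAD1m libraries lie above all others of the set, by 1.19 ± 0.11 against vector and 0.81 ± 0.10 against p53WT (adjusted p = 2.06e-07 and 1.1e-05, edgeR's quasi-likelihood test). Uqcrc1, a core protein of complex III, stood at 134 and 150 CPM with vector, 162 and 159 with p53WT and 206 and 219 with TAD1m (0.58 ± 0.08 against vector, 0.41 ± 0.08 against p53WT). Against p53WT, TAD1m called 13 of 81 nuclear members higher and 5 lower, and the count of 18 became 33 when only those 2 groups were fitted. The 18 are a smaller share than the 39.1% of all genes called. Between TAD2m and p53WT 0 of 81 were called, 3 had an unadjusted p under 0.05, and DESeq2 called 0.

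In the sgPcyt2 set, withdrawal of doxycycline came with more chrM RNA and less nuclear subunit RNA. In sgPcyt2 cells 9 of 13 chrM genes rose and 1 fell, and all 7 measured ones rose, with a median log2 change of 1.02 beside 0.024 for all genes. Of all 14916 genes 76.3% were called, 39.2% higher and 37.1% lower. The nuclear members gave 13 higher and 41 lower of 79. With the cDNA the chrM counts were 11 and 1 of 13, again with all 7 measured genes higher (median 0.81 beside 0.02), and the nuclear counts 17 and 41 of 79, where 73.5% of all genes were called, 37.3% higher and 36.3% lower. Taken in both directions, the chrM share of calls in sgPcyt2 cells is near the background and that with the cDNA above it, while higher calls alone are above the background in both lines. The nuclear share in both directions is somewhat under it in sgPcyt2 cells and near it with the cDNA, with more calls lower than higher. With a log2 change of at least 0.5, 5 of the 7 measured chrM genes were higher in both lines, and nuclear members gave 4 higher and 11 lower in sgPcyt2 cells (28.9% and 25.8% of all genes) and 6 and 13 with the cDNA (26.5% and 24.8%). Cox7a1, a gene with few counts, is among these higher nuclear members in both lines. The chrM gene that fell in both lines was mt-Nd3, one of those with few counts. In sgPcyt2 cells the mt-Nd3 call was lost without replicate 2 on doxycycline (-0.56).

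In this set the rise differed between genes of one chromosome. mt-Nd4 held 814 and 899 CPM on and 2134 and 2047 off doxycycline in sgPcyt2 cells, and 923 and 836 on and 1862 and 1885 off with the cDNA. The groups stand far apart in both lines (1.29 ± 0.05 and 1.09 ± 0.04, adjusted p = 2.88e-26 and 8.44e-24, edgeR's quasi-likelihood test). mt-Co1 rose by 1.02 ± 0.04 and 0.92 ± 0.04, mt-Nd5 by 1.15 ± 0.05 and 0.88 ± 0.04, and mt-Nd6 by 1.16 ± 0.04 and 0.81 ± 0.04. mt-Nd1, at 2759 and 2852 CPM on and 3648 and 3428 off in sgPcyt2 cells, rose by 0.33 ± 0.04, and by 0.37 ± 0.04 with the cDNA. mt-Nd2 rose by 0.43 ± 0.04 and 0.27 ± 0.04, and mt-Cytb by 0.53 ± 0.04 and 0.68 ± 0.04. The ribosomal RNAs varied widely between libraries of this set (SE 0.32 to 0.35), and neither passed.

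Complex V led the nuclear decrease. Of its 18 members 15 fell and 0 rose in sgPcyt2 cells (median -0.38), and 14 fell and 2 rose with the cDNA (median -0.33). Of all genes 37.1% were lower and 39.2% higher in sgPcyt2 cells, and 36.3% and 37.3% with the cDNA. Atp5b stood at 1502 and 1506 CPM on and 869 and 886 off doxycycline, and at 1605 and 1588 on and 936 and 921 off with the cDNA. The fall was -0.78 ± 0.04 in both lines (adjusted p = 2.48e-23 and 2.17e-23, edgeR's quasi-likelihood test). The 3 genes of the rotor subunit c fell too, by -0.35 ± 0.06 and -0.62 ± 0.06 (Atp5g1), -0.17 ± 0.05 and -0.29 ± 0.05 (Atp5g2), and -0.70 ± 0.05 and -0.59 ± 0.05 (Atp5g3). Atp5g1 shares 66.0% of its 50-base words with other genes, mainly a processed pseudogene. Atp5g2 shares 87.4%, mainly with a transcribed processed pseudogene, and Atp5g3 shares none. Values of Atp5g1 and Atp5g2 may therefore include reads of other genes.

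Complex IV was mixed in this set. In sgPcyt2 cells 3 of 13 members rose and 8 fell (median -0.15), beside 39.2% and 37.1% of all genes. With the cDNA 4 rose and 5 fell (median -0.06), near the 37.3% higher and 36.3% lower of all genes. The rises in both lines include Cox7a1, a gene with few counts. The difference of complex IV from KPsh was not tested. Cox5a fell by -0.52 ± 0.06 and -0.38 ± 0.05. Cox7a2l, in contrast, held 61.5 and 66.9 CPM on and 141 and 157 off in sgPcyt2 cells, and 62.0 and 66.2 on and 162 and 151 off with the cDNA. It rose by 1.21 ± 0.06 and 1.29 ± 0.06 (adjusted p = 6.1e-23 and 6.37e-24, edgeR's quasi-likelihood test), the highest called change among complex IV genes of at least 5 CPM. Cox4i1 rose by 0.21 ± 0.04 and 0.24 ± 0.04.

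Complex I was again split, with 7 higher and 12 lower of 36 in sgPcyt2 cells and 8 higher and 15 lower with the cDNA. Of all genes 39.2% were higher and 37.1% lower in sgPcyt2 cells, and 37.3% and 36.3% with the cDNA. Lower calls of complex I thus lie near the background, and higher calls under it. Ndufa6, an accessory subunit that contacts the acyl carrier protein, stood at 26.6 and 28.9 CPM on and 78.2 and 72.1 off doxycycline, and with the cDNA at 29.6 and 28.8 on and 59.8 and 58.9 off. It rose by 1.44 ± 0.07 and 1.03 ± 0.07 (adjusted p = 8.89e-24 and 5.13e-18, edgeR's quasi-likelihood test), and every library off the drug lay above every library on it. Ndufa5 stood at 34.1 and 31.3 CPM on and 18.1 and 20.6 off, and at 37.4 and 38.3 on and 17.2 and 16.6 off with the cDNA (-0.76 ± 0.09 and -1.16 ± 0.09). In complex III 1 of 8 rose and 4 fell in sgPcyt2 cells and 2 rose and 5 fell with the cDNA, between 0.22 ± 0.05 for Uqcrh and -0.54 ± 0.06 for Uqcrq in the former. In complex II Sdhc rose (0.22 ± 0.06) and Sdhb, the iron-sulfur subunit, fell (-0.30 ± 0.06) in sgPcyt2 cells.

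The sgPcyt2 line was also compared with the line that carries the cDNA. No line without the guide was kept for 6 days, so loss of Pcyt2 and expression of the cDNA cannot be told apart. On doxycycline, sgPcyt2 cells had 0 higher and 4 lower chrM genes of 13 and 0 higher and 13 lower nuclear members of 79 against cells with the cDNA (18.4% of all genes called, 8.40% higher and 10.0% lower). The chrM differences called among the measured genes were mt-Nd1 (-0.13 ± 0.04), mt-Nd5 (-0.14 ± 0.04) and mt-Nd6 (-0.18 ± 0.04). These 3 calls were lost without replicate 1 of the cDNA line (-0.10, -0.10 and -0.14), those of mt-Nd1 and mt-Nd5 also without replicate 1 of sgPcyt2 (-0.11 and -0.10). The chrM count was 0 without replicate 1 of the cDNA line and the nuclear count 6 without replicate 2 of sgPcyt2. Off doxycycline 3 chrM genes were higher and 4 lower, and 4 nuclear members higher and 25 lower (33.1% of all genes called, 16.3% higher and 16.8% lower), including 9 of 13 of complex IV and 8 of 18 of complex V that were lower. On and off doxycycline, the nuclear share of calls in both directions is near that of all genes, with more calls lower than higher. Cox5a was the lowest of complex IV off the drug (-0.31 ± 0.06). With a log2 change of at least 0.5, 0 of 79 nuclear members passed on doxycycline (2.89% of all genes higher and 2.67% lower) or off it (6.82% and 4.67%), and the 1 and 3 chrM genes that did have few counts. Off doxycycline the chrM and nuclear counts at the first rule, 7 and 29, were 3 and 10 without replicate 1 of sgPcyt2 off doxycycline, 4 and 18 without replicate 1 of the cDNA line and 4 and 19 without its replicate 2.

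The response to doxycycline withdrawal itself differed between the lines for 3 of 13 chrM genes and 18 of 79 nuclear members (12 with a higher and 6 with a lower change in sgPcyt2 cells, where 25.2% of all genes were called, 12.8% higher and 12.4% lower). Both counts are near the share of all genes. For mt-Nd5 and mt-Nd6 the response was larger in sgPcyt2 cells by 0.27 ± 0.06 and 0.35 ± 0.06 (adjusted p = 0.000898 and 1.2e-05, edgeR's quasi-likelihood test). For mt-Nd4 it was larger by 0.20 ± 0.06, a call that DESeq2 did not make (adjusted p = 0.246). It was also lost without replicate 1 or 2 of the cDNA line off doxycycline, replicate 1 of that line on it, or replicate 1 of sgPcyt2 off or on it (0.12 to 0.18). Ndufa6 differed by 0.41 ± 0.10. No member differed by 0.5 or more and passed, beside 6.48% of all genes with a higher and 5.55% with a lower change. The nuclear count was 9 without replicate 1 of the cDNA line on doxycycline, and the chrM count 6 or 7 without replicate 2 of sgPcyt2 off or on it. Trp53 differed between the same lines in the other direction (-1.21 ± 0.12), and its part in these differences was not tested.

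Ratios within a library do not depend on how libraries were scaled. Counts of mt-Nd4 over those of mt-Nd1 were 0.263, 0.254 and 0.260 in KPsh cells on and 0.310, 0.298 and 0.332 off doxycycline (exact two-sided permutation p = 0.1, the smallest possible). They were 0.257 and 0.262 with vector, 0.425 and 0.416 with p53WT, 0.416 in both TAD2m libraries, 0.297 and 0.319 with TAD1m and 0.271 and 0.277 with TAD12m. In the sgPcyt2 line they went from 0.295 and 0.315 to 0.585 and 0.597, and with the cDNA from 0.292 and 0.279 to 0.469 and 0.475. In all 4 comparisons of more with less p53 the ratio was higher without overlap. The ratio of mt-Nd5 to mt-Nd1 rose likewise with p53WT (0.430 ± 0.012 to 0.652 ± 0.021, SD, n = 2) and in sgPcyt2 cells (0.406 ± 0.007 to 0.715 ± 0.027, n = 2). In KPsh it was lower off doxycycline, at 0.299, 0.316 and 0.281 against 0.343, 0.368 and 0.392 on it (exact two-sided permutation p = 0.1). The ratios of mt-Nd6 and mt-Co1 to mt-Nd1 did not separate in KPsh. They were 0.103 and 2.33 on and 0.117 and 2.53 off doxycycline (means, n = 3, exact two-sided permutation p = 0.5 and 0.3). All these ratios use the same counts as the changes above and are no separate evidence.

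A set of 4 comparisons shares no library: KPsh, p53WT against vector, sgPcyt2 and sgPcyt2 with the cDNA, each more against less p53. Of 78 nuclear members tested in all 4, 7 were called higher in each, 8 were called lower in each, 17 were called in both directions and 6 were called in none. Of all 13149 genes tested in the 4 comparisons, 15.3% were called higher in each, 16.2% lower in each, 15.4% in both directions and 6.66% in none. The members' shares called one way in each comparison thus lie under those of all genes, and the share called in both directions lies above. The 7 are 5 accessory subunits of complex I (Ndufa6, Ndufa7, Ndufa13, Ndufb2 and Ndufv3) with Cox4i1 and Cox7a2l. Over the 4 comparisons in that order Ndufv3 changed by 0.90, 0.75, 0.88 and 0.62, Cox7a2l by 0.78, 0.55, 1.21 and 1.29, and Ndufa13 by 0.62, 0.51, 0.50 and 0.55. Part of the Ndufa13 exons lies under those of Tssk6, and reads of the 2 genes cannot be told apart there.

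The 8 lower in each were Ndufa5, Ndufs1 and Ndufv2 of complex I, Sdhd, Uqcrb, and Atp5a1, Atp5g1 and Atp5pb of complex V. Ndufa5 changed by -0.66, -0.74, -0.76 and -1.16. Atp5a1, the alpha subunit that forms the catalytic head with Atp5b, changed by -0.26, -0.24, -0.42 and -0.56. Atp5g1 (-0.26 with p53WT) lost its call there under DESeq2 (-0.24) and without p53WT replicate 1 (-0.21). Of the 17 with calls in both directions, 15 were higher in KPsh and lower in sgPcyt2 cells, and 11 of the nuclear members were higher in KPsh and lower with the cDNA. They include Cox5b (0.56 in KPsh, -0.21 and -0.23 in the sgPcyt2 set), Cox6a1 (0.61, -0.26 and -0.17, the last lost without replicate 2 off doxycycline), Uqcrq (0.41, -0.54 and -0.27) and Atp5j (0.32, -0.46 and -0.37). Of 8 chrM genes tested in all 4, mt-Co1 and mt-Nd4 were higher in each and none was lower in any. KPsh and the sgPcyt2 set also differ in days off doxycycline and in the edit, which cannot be told apart.

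**Figure D5:**
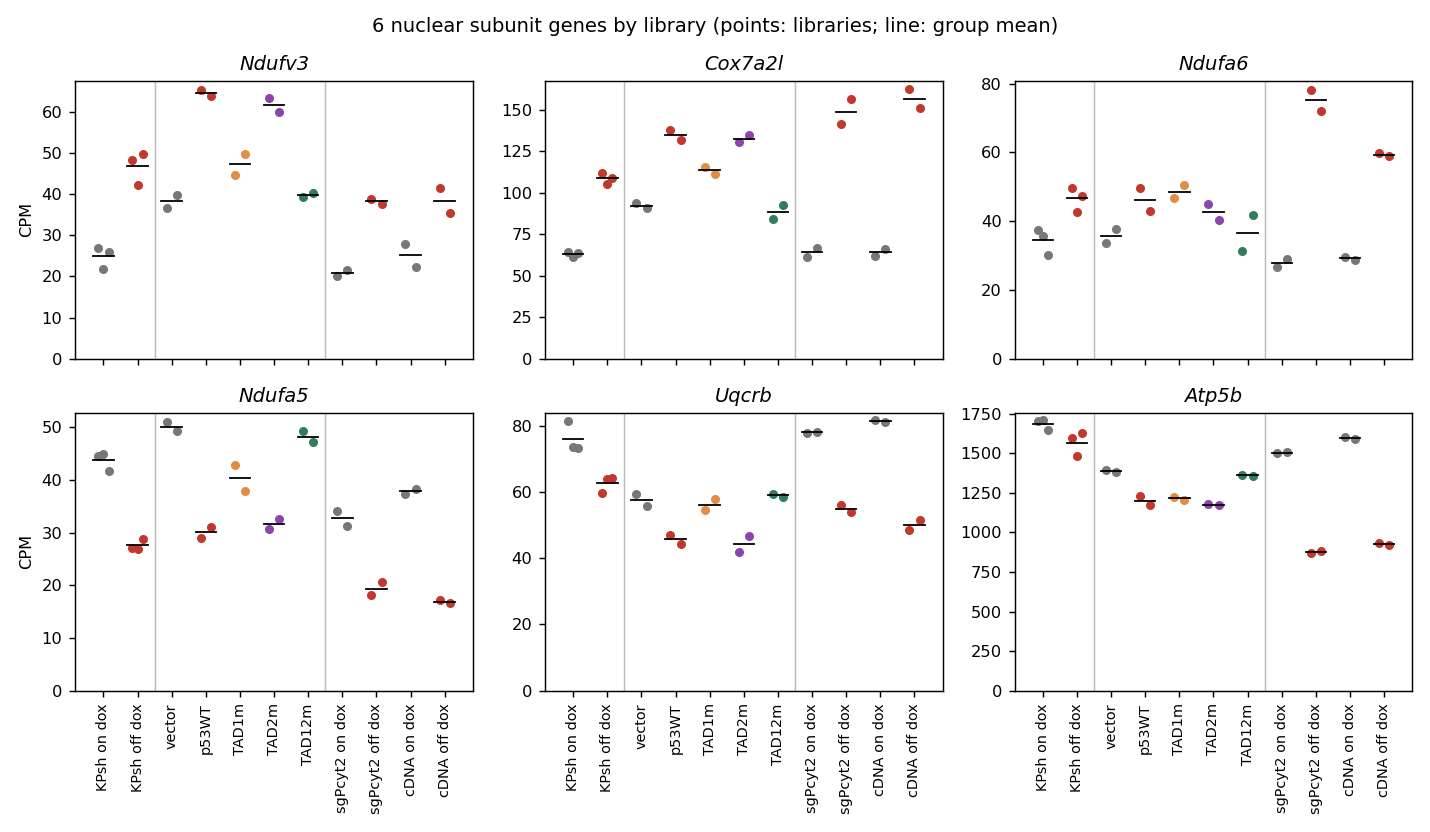
CPM of 6 nuclear members in each library, by group, with group means as lines and axes from 0. Grey marks the vector group of KPnull and the groups on doxycycline of the KPsh and sgPcyt2 sets. By the growth protocol all KPnull groups were given doxycycline. Ndufv3, Cox7a2l and Ndufa6 stand higher off doxycycline and with p53WT, Ndufa5 and Uqcrb lower, and Atp5b drops most in the sgPcyt2 set.

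Tissue-specific isoforms of complex IV were scarce. Over the 24 libraries Cox4i2 held 0 to 3 counts, Cox6a2 0 to 2, Cox8b and Cox8c 0 or 1, and Cox7b2 0 in each. Cox6b2 held 2, 6 and 8 counts in KPsh cells off doxycycline and at most 1 elsewhere, and was not tested. Cox7a1, the muscle form of the subunit that Cox7a2 provides elsewhere, was under 1.2 CPM in all libraries, and its calls with TAD1m (1.58 ± 0.43), in sgPcyt2 cells (2.26 ± 0.54) and with the cDNA (1.43 ± 0.51) rest on 3 to 18 counts per library. DESeq2 did not make the first and the last of these calls (adjusted p = 0.202 and 0.0929). The first was lost also without TAD1m replicate 2 or vector replicate 1, and the last without replicate 2 off or 1 on doxycycline. Ndufa4l2, a relative of the complex IV subunit Ndufa4 known as a hypoxia-induced gene, held 11 and 15 counts with TAD1m, 0 and 3 with vector, 2 and 0 with p53WT, 4 and 2 with TAD2m and 1 in each TAD12m library. Its fitted change with TAD1m (3.08 ± 0.75, adjusted p = 0.00392, edgeR's quasi-likelihood test) was not called by DESeq2 (adjusted p = 0.081) or without vector replicate 1.

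Other genes of the pathway, from lists of known members, moved differently from chrM. Of 33 genes for transcription, processing and copy number of mitochondrial DNA, 2 rose and 18 fell in KPsh (median -0.23), 1 and 19 with p53WT (-0.28), 1 and 21 with TAD2m (-0.28), 3 and 7 with TAD1m (-0.15), 3 and 24 in sgPcyt2 cells (-0.41) and 2 and 24 with the cDNA (-0.52). With TAD12m 0 were called, beside 3.85% of all genes. Lower calls among all genes were 31.7% in KPsh, 25.1% with p53WT, 24.2% with TAD2m and 17.5% with TAD1m. They were 37.1% in sgPcyt2 cells and 36.3% with the cDNA. Lower calls of these 33 genes thus lie near the background with TAD1m and above it in the other comparisons that had calls. Mgme1, a nuclease that maintains mitochondrial DNA, fell by -0.67 ± 0.10 in KPsh, -0.77 ± 0.13 with p53WT and -1.08 ± 0.09 in sgPcyt2 cells. Pnpt1, a mitochondrial RNA-degrading phosphorylase, fell by -0.64 ± 0.07 in KPsh and -0.67 ± 0.07 with p53WT, and Lrpprc, which stabilises mitochondrial mRNAs, by -0.66 ± 0.06 in KPsh. Tfam, which packages mitochondrial DNA and starts its transcription, fell with p53WT (-0.47 ± 0.08), with TAD2m (-0.48 ± 0.08), in sgPcyt2 cells (-0.40 ± 0.07) and with the cDNA (-0.33 ± 0.07), and did not pass in KPsh (0.15 ± 0.07) or with TAD1m (-0.08 ± 0.07).

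Mitochondrial ribosomal proteins, which serve to translate the chrM mRNAs, gave 8 higher and 34 lower of 78 in KPsh, 1 and 36 with p53WT, 6 and 59 in sgPcyt2 cells and 1 and 65 with the cDNA (median -0.50 in each of the last 2 comparisons). Cytosolic ribosomal proteins gave 19 and 4 of 80, 2 and 23, 16 and 44, and 17 and 29 in the same order. Assembly factors of the complexes were mixed, with 12 higher and 15 lower of 53, 9 and 15, 18 and 21, and 15 and 25. Of all genes 64.8%, 50.6%, 76.3% and 73.5% were called in that order, with 31.7%, 25.1%, 37.1% and 36.3% lower. Lower calls of mitochondrial ribosomal proteins thus lie above the background. Taken in both directions, calls of cytosolic ribosomal proteins and assembly factors lie near or under it. Lower calls alone lie above it for cytosolic ribosomal proteins in sgPcyt2 cells and, by less, for assembly factors with the cDNA. In the other comparisons the lower calls of these lists lie near or under it. Higd2a, a complex IV assembly factor, rose in KPsh (0.99 ± 0.07), with p53WT (0.77 ± 0.09), with TAD2m (0.90 ± 0.09) and with TAD1m (0.60 ± 0.09). Sco2, a copper chaperone of complex IV known as a p53 target, did not pass in KPsh (0.19 ± 0.10) or with p53WT (-0.02 ± 0.17), and fell by -0.22 ± 0.08 in sgPcyt2 cells, a call lost under DESeq2 and without replicate 1 off (-0.21) or on doxycycline (-0.16). With the cDNA it fell by -0.28 ± 0.08 (adjusted p = 0.00182, edgeR's quasi-likelihood test).

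The electron carriers and the subunits outside the symbol rule were mixed. Of 15 such genes 7 rose and 5 fell in KPsh, 0 and 6 with p53WT, 6 and 9 in sgPcyt2 cells and 5 and 8 with the cDNA. Set beside these counts are 64.8%, 50.6%, 76.3% and 73.5% of all genes called in the same order. Cyc1, the cytochrome c1 of complex III, fell by -0.51 ± 0.06 in KPsh, -0.24 ± 0.06 with p53WT, -0.74 ± 0.05 in sgPcyt2 cells and -0.99 ± 0.05 with the cDNA. Cycs, cytochrome c, fell by -0.43 ± 0.07, -0.58 ± 0.08, -1.6 ± 0.06 and -1.31 ± 0.06 in the same order. Of 17 regulators of nuclear mitochondrial genes tested in KPsh 6 rose and 6 fell, and with p53WT 5 and 5 of 17. Nrf1 fell in these 4 comparisons (-0.50 ± 0.08, -0.45 ± 0.09, -0.96 ± 0.08 and -1.18 ± 0.08), while Esrra, which encodes ERRα, rose (0.98 ± 0.07, 1.43 ± 0.26, 0.76 ± 0.06 and 1.06 ± 0.06). In the sgPcyt2 set 9 of 18 regulators rose and 7 fell, and with the cDNA 8 and 7. The same shares of all genes stand beside the regulator counts.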

How the data were processed

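RNA-seq libraries were made with a stranded mRNA kit after TRIzol extraction, per the labels' protocols. The values are expected counts per gene and library, in steps of 0.5, that the authors deposited without normalization in 3 tables. The submitters' processing notes name STAR 2.6.1c, HOMER and mm10. Per the file headers, reads of both strands were counted over exons, and 1 transcript was kept per gene. The lengths (other values) used for CPM per kb are those the authors deposited. Counts were rounded, which moved no library total by more than 0.0533%.

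Tests used edgeR 4.0.16 (R 4.3.3; filterByExpr, TMM, robust quasi-likelihood fits with all groups of a table, no covariate, Benjamini-Hochberg over all genes tested, called at 0.05, with a second rule that adds a log2 change of at least 0.5), which was tested on simulated data. CPM values are scaled by TMM. DESeq2 1.42.0 was an alternative. Members and lists were chosen with earlier results of these data known. Named nuclear genes were the highest and lowest called change of each complex at a mean of at least 5 CPM, the isoform groups and fixed regulators, with up to 3 called genes of each list. Beyond that rule, in at least one comparison, nuclear members were named after their values were seen (Ndufb2, Ndufb6, Ndufa7, Ndufa13, Ndufs1, Ndufv2, Cox5b, Atp5j, Atp5a1, Atp5pb).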

Additional observations from a re-analysis of the deposited data

Results flagged for a closer look

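The response to doxycycline withdrawal differed between sgPcyt2 cells and cells with the Pcyt2 cDNA for 17 of the genes named by rule. The test was edgeR's quasi-likelihood test of the difference itself, in which 25.2% of all genes were called. The nuclear members among the 17 were named as the highest or lowest called change of a complex in this same test. That they passed was therefore fixed by the choice. Values are the log2 change off minus on doxycycline in sgPcyt2 cells less that with the cDNA. On chrM they were 0.20 for mt-Nd4, 0.27 for mt-Nd5 and 0.35 for mt-Nd6. Among nuclear members they were 0.41 for Ndufa6 and -0.44 for Ndufb1-ps of complex I, 0.30 for Sdhd, 0.32 for Uqcrc2 and -0.27 for Uqcrq of complex III, -0.25 for Cox6c of complex IV, and 0.26 for Atp5g1 and -0.40 for Atp5mpl of complex V. Sdhd fell by 0.12 in sgPcyt2 cells and by 0.42 with the cDNA. Uqcrc2 did not pass in sgPcyt2 cells (0.07) and fell by 0.25 with the cDNA. Among other genes they were 0.25 for Cyc1, -0.30 for Cycs, -0.30 for Esrra, -0.22 for Gabpa, -0.18 for Myc and 2.52 for the coactivator Ppargc1b, which rose by 1.64 ± 0.39 in sgPcyt2 cells and fell by 0.88 with the cDNA. Leaving out 1 library ended the calls of mt-Nd4 (5 libraries), Atp5g1, Cox6c, Cyc1, Cycs, Esrra, Myc, Ndufb1-ps and Uqcrq, with values between 0.12 and 0.24 for the positive ones and between -0.29 and -0.15 for the negative ones.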

How the results depend on the processing

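Of 7925 gene values recomputed under alternatives, 7377 kept direction and side of the threshold, 455 lost and 93 gained a call, and 0 called values changed sign. Counts of members called moved by over 1.5 times as follows. With DESeq2 they were 0 for TAD12m nuclear members, 2 (chrM) and 7 (nuclear) for sgPcyt2 against cDNA on doxycycline, 3 and 17 off it, and 7 nuclear members for the difference of responses. With DESeq2 size factors TAD1m had 3 chrM calls. Without a filter KPsh had 5 chrM calls and TAD12m 2 nuclear. With only the groups compared TAD12m had 0 and TAD1m against p53WT 33 nuclear calls. With only the 7 measured chrM genes, chosen after seeing the data, the cDNA line had 7 off against on doxycycline, and sgPcyt2 against cDNA off it 4. Scaling without chrM moved no count. Where no reason is part of the setting, the cause was not tested. Depth limits mainly the 6 chrM genes with 0 to 177 counts per library and the scarce isoforms. Leaving out 1 library gave these ranges of chrM and nuclear calls: KPsh 2 to 4 and 44 to 57, p53WT 7 to 8 and 24 to 29, TAD1m 0 to 1 and 13 to 25, TAD2m 6 to 6 and 16 to 26, TAD12m 0 to 0 and 0 to 3, TAD1m against p53WT 5 to 6 and 12 to 18, TAD2m against p53WT 0 to 0 and 0 to 0, sgPcyt2 7 to 11 and 48 to 57, cDNA 10 to 12 and 45 to 55, sgPcyt2 against cDNA on 0 to 5 and 6 to 14, off 3 to 7 and 10 to 30, difference of responses 2 to 7 and 9 to 16.

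No label says that a replicate number marks a shared culture or batch, and deviations of same-numbered libraries correlated at -0.148 to -0.142 in KPsh, -0.317 to 0.482 in KPnull (0.482 for TAD12m with vector, -0.262 for p53WT with vector) and -0.088 to 0.012 in the sgPcyt2 set. With the replicate number as a block KPsh had 4 chrM and 47 nuclear calls, p53WT 9 and 27, TAD1m 4 and 22, TAD2m 6 and 29, TAD12m 0 and 1, sgPcyt2 10 and 53 and the cDNA line 12 and 56. With crossed pairing, added after seeing the data, p53WT had 10 and 38 calls and TAD2m 7 and 37.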
